A study of Homo sapiens with 2 samples.

Results

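ERN1, XBP1, BHLHA15, ATF6, ATF6B, MBTPS1, MBTPS2, CREB3, CREB3L2 and CREB3L4 encode the IRE1 and ATF6 arms of the unfolded protein response (UPR) and transcription factors that act with them at the ER. These 10 genes, of 23972 gene rows on the main chromosomes, were chosen by name with earlier FPKM values of the same samples in view, so their differences are given as a description. The samples were WT HEK293 cells, a human embryonic kidney line, and PERK-KO HEK293 cells, in which the ER stress kinase PERK was disrupted with CRISPR/Cas9. Both were kept for 12 h in OXPHOS medium, which contains galactose and pyruvate in place of glucose, and 1 sample per genotype was analysed. PERK-KO lines were derived from seeded single cells, and how many clones were sequenced is not given in the sources used here. There are no replicates, so a replicate error does not exist for any gene and no difference was tested. The genotype cannot be told apart from the clone or the culture. In bulk RNA, fewer cells with a transcript and less transcript per cell cannot be told apart.

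The UPR restores folding capacity when unfolded proteins accumulate in the ER. IRE1 is a transmembrane kinase and endoribonuclease that removes a short intron from XBP1 mRNA in the cytosol, which lets the mRNA encode the active transcription factor XBP1s. ATF6 leaves the stressed ER for the Golgi apparatus, where the site-1 protease (S1P, encoded by MBTPS1) and the site-2 protease (S2P, encoded by MBTPS2) cut it and free its transcription factor domain. The CREB3 family factors are also ER membrane proteins that are cut by these proteases. PERK, the other sensor, phosphorylates eIF2α and attenuates translation.

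EIF2AK3, the gene for PERK, had an FPKM (fragments per kilobase of exon, scaled to the mapped fragments of the library) of 5.61 in the WT sample, where the deposited confidence limits were 5.11 and 6.12, and of 3.89 (3.44 to 4.34) in the PERK-KO sample. The limits did not overlap, but FPKM counts edited transcripts too, so this value does not check the loss of the protein. Of 4 genes listed as HEK293-expressed, VIM and LIN28B reached an FPKM of 1 in both samples and PAX2 in neither. Limits were separate in 3 of the 4. VIM had 418 in WT and 378 in PERK-KO, LIN28B had 4.16 and 7.05, and NEFM, a neurofilament gene, had 0.662 and 5.21. The part of these differences in the results was not tested. Of 6 markers of other cell types, ALB and INS were listed at 0 in both samples and PTPRC had 0.108 and 0.180. PECAM1, ADIPOQ and COL1A1 reached 1 in both samples, and the 6 summed to 8.11 in the WT sample and 7.58 in the PERK-KO sample. At a WT FPKM between 1 and 10, a gene's limits typically lay 13.3% (WT) and 13.6% (PERK-KO) of the value away from it, and above 100 they lay 4.15% and 4.56% away. The limits describe counting and assignment within a library and leave out differences between cultures.

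The FPKM of all 10 genes was above its WT value in the PERK-KO sample. BHLHA15, ERN1, CREB3L2 and XBP1 were more than 1.5-fold higher. The other 6 genes, which include ATF6, ATF6B and both proteases, differed by between 1.07-fold and 1.40-fold. Among all 14594 genes whose FPKM reached 1 in either sample, 10.1% were more than 1.5-fold higher and 7.54% were more than 1.5-fold lower, and none of the 10 genes was among the lower ones. ERN1 and BHLHA15 were below 1 in the WT sample and passed this filter through PERK-KO cells alone. Of the 8 genes that reached 1 in both samples, 2 were more than 1.5-fold higher, beside 8.39% of all 13792 genes under that filter. The confidence limits of the 2 samples did not overlap, with PERK-KO cells the higher, in 9 of the 10 genes and in 26.1% of all genes past the filter. Because the genes were chosen with these values known, nothing is read from their counts against those shares. Their median log2 fold change was 0.46, and that of 14439 genes with a finite ratio was 0.039.

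**Figure D1:**
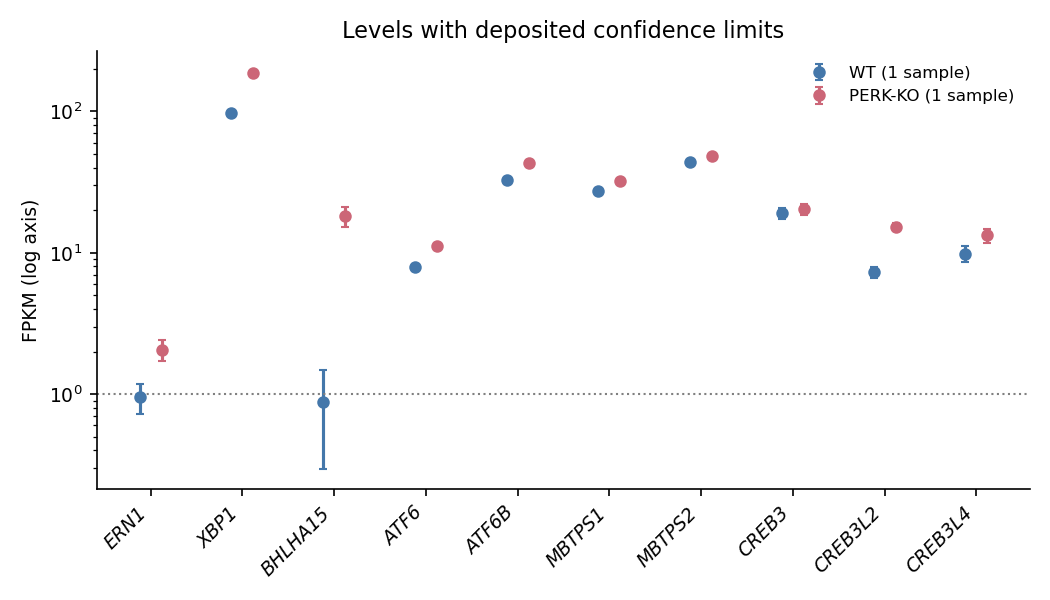
FPKM (log axis) of the 10 genes in the WT sample (blue) and the PERK-KO sample (red), 1 sample each, with the deposited confidence limits as bars; the dotted line marks an FPKM of 1. XBP1 was highest in both samples, and BHLHA15 and ERN1 lay below the line in the WT sample alone.

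**Figure D2:**
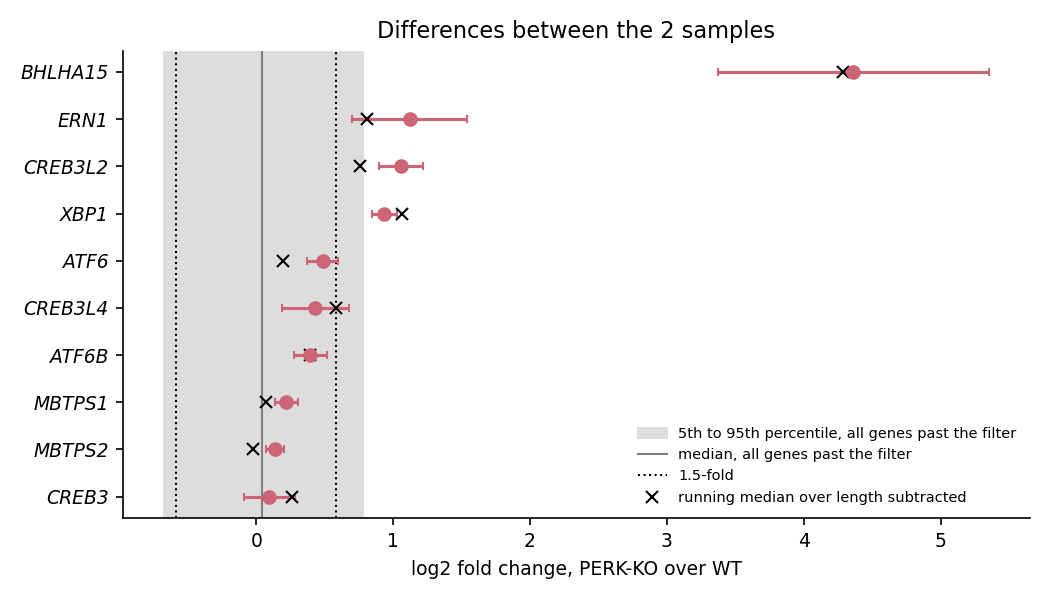
log2 fold change of PERK-KO over WT cells for the 10 genes, with bars for the interval propagated from the deposited limits, crosses for the value after the running median over transcript length was subtracted, the 5th to 95th percentile of all genes past the filter in grey and 1.5-fold as dotted lines. BHLHA15, ERN1, CREB3L2 and XBP1 lie beyond the grey range, and the other 6 genes lie within it.

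In the IRE1 arm, the sensor, its substrate and a gene known to be activated by XBP1 were all higher in the PERK-KO sample. ERN1, which encodes IRE1α, lies on the minus strand at chr17:62120390-62207502 (GRCh37, as are all coordinates here). Its FPKM was 0.951 (limits 0.726 to 1.18) in the WT sample and 2.07 (1.72 to 2.42) in the PERK-KO sample. The values were low in both samples and their limits did not overlap. The ratio was 2.17, with an interval of 1.63 to 2.91 when the deposited limits were read as 2 standard errors and propagated, and this reading is used for all intervals below. ERN1 was the second lowest of the 10 genes in the WT sample and the lowest in the PERK-KO sample. ERN2, which encodes the paralogue IRE1β, had 1.67 (1.34 to 1.99) and 1.39 (1.07 to 1.70), and these limits overlapped. Within each sample, where no scaling between libraries enters, ERN1 was 0.571 times ERN2 (interval 0.421 to 0.775) in the WT sample and 1.49 times ERN2 (1.13 to 1.98) in the PERK-KO sample. The order of the 2 IRE1 transcripts was thus reversed between the samples in the FPKM as deposited. The length trend described below enters this ratio and was not subtracted from it. ERN1 has 7895 bases and ERN2 3337, and genes of similar length had median log2 fold changes of 0.31 and 0.069. Whether the order stays reversed without the trend was not tested.

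XBP1 is on the minus strand at chr22:29190548-29196560. Its FPKM was 97.6 (93.0 to 102) in the WT sample and 187 (179 to 194) in the PERK-KO sample, a ratio of 1.91 (interval 1.80 to 2.03). It was the most abundant of the 10 transcripts in both samples and moved from percentile 92.2 of genes past the filter in the WT sample to percentile 96.4 in the PERK-KO sample. The bases that IRE1 removes are shown because they are what separates the unspliced from the spliced XBP1 mRNA. They lie in the coding part of exon 4 at chr22:29192115-29192140 and were found as the stretch between a pair of matches to the letters CNGCAGN that lie 26 bases apart in the coding sequence, each cut after the letters CNG. In the sense strand, with the 26 bases in capitals between 30 coding bases on each side (chr22:29192085-29192170), the sequence reads as follows.
XBP1 exon 4: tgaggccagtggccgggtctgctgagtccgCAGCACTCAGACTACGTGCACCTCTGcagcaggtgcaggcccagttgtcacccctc
The loops are CCGCAGC at the 5′ cut and CTGCAGC at the 3′ cut. Division of 26 by 3 leaves a remainder of 2, so removal shifts the reading frame, and the canonical XBP1 transcript of GENCODE 44 is annotated with a gap of 26 bases that leaves this same spliced sequence. The deposited table has 1 FPKM per gene, which sums both forms, so the 1.91-fold difference is one of total XBP1 mRNA and says nothing about the spliced share.

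BHLHA15 encodes MIST1, a basic helix-loop-helix factor of professional secretory cells and a known target of XBP1s. It is on the plus strand of chromosome 7. Its FPKM was 0.885 (0.295 to 1.47) in the WT sample and 18.2 (15.3 to 21.0) in the PERK-KO sample, and the limits were far apart. The widths of these limits equalled those of Poisson counts of 9 fragments in the WT sample and 162 in the PERK-KO sample. The ratio was 20.6, and with so few fragments in the WT sample its interval ran from 10.4 to 40.8. Among the 14439 genes with a finite ratio, 24 had a larger one. Genes past the filter that were listed at 0 in a sample, also those at 0 in the WT sample, are left out of this rank. The gene moved from percentile 2.36 of genes past the filter in the WT sample to percentile 65.3 in the PERK-KO sample, and from the lowest of the 10 genes to the sixth. It passed the filter through the PERK-KO sample alone. For such a gene, a low WT percentile and a higher PERK-KO FPKM are set by the filter. Nothing is read from the direction of this move, and the rank by ratio was taken under the same filter. Relative to XBP1 in the same sample, BHLHA15 was 0.00906 (interval 0.00465 to 0.0177) in the WT sample and 0.0974 (0.0828 to 0.115) in the PERK-KO sample. BHLHA15 thus differed more than XBP1 did. The deposited gene model spans 706 bases at chr7:97841566-97842271, while the RefSeq start of the gene lies 815 bases upstream at position 97840751, and the model leaves out what lies between them.

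The promoters were read from RefSeq (table on GRCh38.p14, from 250 bases before to 50 bases after each start) and placed on GRCh37 by exact match. All 10 genes had a promoter there, 12 sequences in total. The ER stress element (ERSE), to which ATF6 and XBP1 are known to bind, was searched on both strands as CCAAT, any 9 bases and CCACG. It was present in XBP1 alone of the 10 genes, and in 27 of 35116 promoters in the table (0.0769%). The match begins 52 bases before the start. The XBP1 promoter is shown at chr22:29196586-29196729, in the sense strand, with the element in capitals.
XBP1 promoter: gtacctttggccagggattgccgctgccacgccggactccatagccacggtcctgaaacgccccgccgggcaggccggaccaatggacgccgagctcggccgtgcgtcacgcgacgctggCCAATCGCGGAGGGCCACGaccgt
In the list of known ATF6 target genes described below, 5 of the 13 genes with a promoter in the table held the element, and those of HSPA5, CALR and CRELD2 are set beside that of XBP1, with the fixed letters in capitals.
XBP1: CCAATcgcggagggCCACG
HSPA5: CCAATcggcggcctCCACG
CALR: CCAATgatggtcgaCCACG
CRELD2: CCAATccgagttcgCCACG
These lie at chr22:29196591-29196609 for XBP1, chr9:128003670-128003688 for HSPA5, chr19:13049198-13049216 for CALR and chr22:50312202-50312220 for CRELD2. The ER stress element II (ATTGG, any base, CCACG) and the letters TGACGTGG, the core of the UPR element, matched none of the 10 promoters, against 0.0541% and 0.729% of promoters in the table. The start of BHLHA15 holds GACGTG, letters that were added to the search after this sequence had been read, 6 bases into the transcript at chr7:97840756-97840761.
BHLHA15 start: cggctaaagcGACGTGtccttgtccccc
GACGTG was also in the CREB3 promoter and in 7.81% of promoters in the table, and it overlaps TGACGTGG where both are present. A match describes the letters and does not show binding.

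In the ATF6 arm, both sensors were higher in the PERK-KO sample by less than 1.5-fold. ATF6, on the plus strand at chr1:161736034-161933860, had an FPKM of 7.92 (7.45 to 8.38) in the WT sample and 11.1 (10.5 to 11.7) in the PERK-KO sample. The ratio was 1.40 (interval 1.29 to 1.52). ATF6B, a paralogue with weaker activity on ER chaperone genes, lies on the minus strand at chr6:32083045-32096017. It had 32.7 (30.7 to 34.6) and 43.0 (40.4 to 45.5), a ratio of 1.31 (1.21 to 1.43). In both genes the limits of the 2 samples did not overlap. ATF6 was 0.242 times ATF6B (interval 0.223 to 0.263) in the WT sample and 0.258 times (0.239 to 0.280) in the PERK-KO sample, and these intervals overlapped. ATF6B lies in the major histocompatibility region and has 3 more rows on alternate haplotypes, all listed at 0 in both samples, so summing them leaves its values as they are.

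Both proteases that activate ATF6 were higher in the PERK-KO sample by small amounts. MBTPS1 (S1P), on the minus strand at chr16:84087369-84150517, had 27.5 (26.4 to 28.7) in the WT sample and 32.02 (30.7 to 33.3) in the PERK-KO sample, a ratio of 1.16 (interval 1.10 to 1.23). MBTPS2 (S2P), on the plus strand at chrX:21857656-21903541, had 44.2 (42.8 to 45.6) and 48.6 (47.0 to 50.2), a ratio of 1.10 (1.05 to 1.15). The limits did not overlap in either gene. MBTPS1 was 0.622 times MBTPS2 (0.590 to 0.656) in the WT sample and 0.658 times (0.625 to 0.694) in the PERK-KO sample. The locus of MBTPS2 contains YY2 over 2741 bases, and YY2 had 11.0 and 8.87.

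Of the 3 CREB3 family genes, CREB3L2 alone was past 1.5-fold in the FPKM as deposited. CREB3L2, which encodes BBF2H7, a factor known for inducing the COPII coat gene SEC23A in cartilage, lies on the minus strand at chr7:137559725-137686847. Its FPKM was 7.31 (6.64 to 7.98) in the WT sample and 15.2 (14.3 to 16.2) in the PERK-KO sample, a ratio of 2.08 (interval 1.86 to 2.33). CREB3, which encodes the factor also called Luman or LZIP, is on the plus strand at chr9:35732317-35737005. It had 19.1 (17.4 to 20.8) and 20.4 (18.5 to 22.3), a ratio of 1.07 (0.939 to 1.22), and it was the gene of the 10 whose limits overlapped. CREB3L4, which is prominent in prostate, is on the plus strand at chr1:153940315-153946840. It had 9.83 (8.59 to 11.1) and 13.3 (11.8 to 14.7), a ratio of 1.35 (1.14 to 1.60). CREB3L2 was 0.383 times CREB3 (0.337 to 0.435) in the WT sample and 0.746 times CREB3 (0.667 to 0.835) in the PERK-KO sample. The length trend described below enters this ratio and was not subtracted from it. Genes near CREB3L2 in length (7441 bases) had a median log2 fold change of 0.30, and those near CREB3 (1496 bases) had -0.16. Both CREB3 and CREB3L4 share bases with neighbours in the deposited loci. CREB3 shares 143 bases with GBA2 (FPKM 12.9 in WT and 16.7 in PERK-KO) and 76 with TLN1 (18.3 and 28.2). CREB3L4 shares 346 with SLC39A1 (57.4 and 55.6) and 96 with JTB (121 and 112). The sources used here do not say that strand was kept, so fragments from shared bases could not be assigned by strand.

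By level, the order in the WT sample was XBP1, MBTPS2, ATF6B, MBTPS1, CREB3, CREB3L4, ATF6, CREB3L2, ERN1 and BHLHA15. Neighbours in this order had separate limits except ATF6 with CREB3L2 and ERN1 with BHLHA15. The 5 highest kept their order in the PERK-KO sample. Below them stood BHLHA15, CREB3L2, CREB3L4, ATF6 and ERN1, and the limits of CREB3, BHLHA15, CREB3L2 and CREB3L4 overlapped from each to the next. The changes of place among the lower genes were those of BHLHA15 and CREB3L2, which both stood above CREB3L4 and ATF6 in the PERK-KO sample.

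The running median of the fold change over all genes climbed with transcript length, from -0.42 in log2 at 300 bases to 0.37 at 15000 bases, and this bears on the small differences. For each gene the median log2 fold change of the 500 genes nearest in transcript length was subtracted. ATF6, with a canonical transcript of 7470 bases, went from 0.49 to 0.20, and MBTPS1 from 0.22 to 0.070. MBTPS2 went from 0.14 to -0.026, so its direction was not kept. XBP1, a shorter transcript of 1791 bases, went from 0.94 to 1.06. ERN1 at 0.81, CREB3L2 at 0.76 and BHLHA15 at 4.29 stayed beyond 1.5-fold, and CREB3L4 came to 0.585, which is just past it. For BHLHA15 the canonical length of 3262 bases was used, where the median was 0.073. Its deposited model spans 706 bases, and the running median was -0.39 at 710 bases. The source of the length trend was not tested.

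The genes that XBP1s and ATF6 are known to activate were mostly higher in the PERK-KO sample. These lists, drawn from textbook knowledge with earlier results of these data known, hold no member of the 10. Each gene was put in 1 list only, although ATF6 and XBP1 are both known to bind the ERSE, so the lists do not separate the arms. Of 21 XBP1 target genes, 17 were more than 1.5-fold higher and none was more than 1.5-fold lower, with a median log2 fold change of 0.93, beside 10.1% higher and 7.54% lower among all genes past the filter. SEC24D, a COPII coat subunit, had the largest difference in this list, from 3.76 to 23.8 (22.6 to 24.9), a ratio of 6.32. DNAJC3, the ER co-chaperone p58IPK, had 7.01 and 19.0, a ratio of 2.71. SEC61B of the translocon (224 and 213) and SEC11C of signal peptidase (177 and 163) were at the low end, with log2 fold changes of -0.067 and -0.12. Both have short transcripts, of 564 and 791 bases, and with the length trend subtracted their direction turned, to 0.36 and 0.25. Of 14 ATF6 target genes, 13 were more than 1.5-fold higher and none lower, with a median of 1.24, beside the same shares of all genes. With the length trend subtracted, 14 of the XBP1 and 12 of the ATF6 target genes were more than 1.5-fold higher. The share was 6.10% among all 12439 genes with a transcript length. SRPR, an XBP1 target gene with a ratio of 2.07 as deposited, had no transcript length, so it is missing from the 14. HYOU1, an ER chaperone of the HSP70 class, had 25.5 (24.1 to 26.9) and 133 (128 to 138), and HERPUD1, an ER-associated degradation factor, had 25.9 (23.9 to 27.8) and 114 (108 to 120). CALR, the lectin chaperone calreticulin, had a ratio of 1.53, and DERL3, an ER-associated degradation factor, had 1.32. Limits were separate, with PERK-KO the higher, in 17 of the 21 and in 14 of the 14, beside 26.1% of all genes.

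Among 15 genes for IRE1 signalling partners and the tRNA ligase complex that rejoins XBP1 mRNA, 1 was more than 1.5-fold higher and 1 more than 1.5-fold lower, with a median log2 fold change of -0.092, beside 10.1% higher and 7.54% lower among all genes. Both calls, MAPK8 and BAX, ended with the length trend subtracted, which took MAPK8 from 0.77 to 0.56 and BAX from -0.78 to -0.41 in log2. MAPK8, the kinase JNK1 downstream of IRE1, had 10.7 (9.30 to 12.1) and 18.2 (16.3 to 20.1), and RPAP2, a phosphatase that acts on IRE1, had 5.58 and 8.10. BAX, a cell death protein that binds IRE1, had 318 (305 to 330) and 185 (175 to 194), and TRAF2, the adaptor that IRE1 recruits, had 34.7 and 25.5. RTCB, the ligase itself, listed as C22orf28, had 55.1 (52.6 to 57.5) and 51.7 (49.2 to 54.2), and its limits overlapped.

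Of 8 mRNAs that IRE1 is reported to degrade, 7 passed the filter, none was more than 1.5-fold higher and 1 was more than 1.5-fold lower, with a median log2 fold change of -0.25, beside 7.54% lower among all genes. Limits were separate in 4 with PERK-KO the lower (BLOC1S1, PMP22, COL6A1 and SPARC) and in 1 with it the higher (TNFRSF10B), beside 18.7% and 26.1% of all genes. The lower one was BLOC1S1, the most widely used substrate of this decay, with 166.1 (155 to 177) in the WT sample and 94.1 (85.6 to 103) in the PERK-KO sample. BLOC1S1 has a short transcript of 562 bases, for which genes of similar length had a median of -0.43, and its log2 fold change of -0.82 became -0.39, within 1.5-fold, once that was subtracted. With the same step PMP22 went from -0.48 to -0.38, COL6A1 from -0.25 to -0.37 and SPARC from -0.33 to -0.39. TNFRSF10B went from 0.18 to 0.041, HGSNAT from 0.13 to -0.040 and SCARA3 from 0.049 to -0.049. PMP22, a myelin protein gene, had 18.5 and 13.2, while HGSNAT, a lysosomal enzyme gene, had 14.3 and 15.6 and TNFRSF10B, the death receptor 5 gene, had 27.9 and 31.6.

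None of the 7 genes listed as other substrates of S1P and S2P or their escorts passed 1.5-fold in either direction. Among all genes past the filter, 10.1% were higher and 7.54% lower. SREBF2, the sterol regulator cut by both proteases, was closest with 46.6 (45.1 to 48.1) and 69.1 (67.1 to 71.0), a ratio of 1.48, followed by C12orf49, which encodes an S1P partner, at 1.35. GNPTAB, an enzyme precursor that S1P cuts, had 8.26 and 8.81, and INSIG1, which retains the sterol sensor in the ER, had 75.4 and 79.1. In the list of other CREB3 family genes and CREB3 binding proteins, 3 of 5 passed the filter and none passed 1.5-fold. CREBZF had 28.04 and 36.8, HCFC1, a cofactor of CREB3, had 38.2 and 48.9, CREB3L1 was below an FPKM of 1 in WT and PERK-KO cells, and CREB3L3 was listed at 0 in both. Among the cofactors of ATF6 on the ERSE, YY1 had 36.8 and 51.5, NFYC 28.7 and 39.0, NFYA 9.82 and 12.4, and NFYB 12.2 and 9.25, all within 1.5-fold. The list sizes are small, and no list was tested against the others. With these shares of all genes, nothing is read from the absence of calls in the lists of this paragraph.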

How the data were processed

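The authors mapped reads of poly(A)-selected RNA to hg19 with TopHat2 2.0.13 and computed expression with Cufflinks 2.2.1 (versions from the submitters' processing notes) and Cuffdiff. The deposited values are FPKM for 25277 gene rows in each sample, each with its confidence limits. No counts were used, so the number of reads per sample is unknown. The annotation they used is not given in the sources used here. Each sample was grouped by its genotype label. The 10 genes and the lists were chosen with earlier results of these data known.

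Rows on the main chromosomes were used (23972). A fold change divides the PERK-KO FPKM by the WT FPKM, with nothing added, where either sample reached 1, and 1.5-fold was the threshold. The distance from a value to its limit was read as 2 standard errors and propagated to the log2 ratio. No test was made, because each genotype has 1 sample. Transcript lengths came from GENCODE 44 canonical transcripts on GRCh37, which 86.1% of genes past the filter with a finite ratio had. Promoters came from RefSeq. Named genes were all 10 members, EIF2AK3, the markers, and the 2 highest and 2 lowest fold changes per list among genes that reached an FPKM of 5 in either sample. Further genes named were chosen after their values were seen. They were ERN2, RTCB, CREB3L1, CREB3L3, COL6A1, SPARC, SCARA3, PDGFRB, YY2, GBA2, TLN1, SLC39A1, JTB, SRPR and the promoter examples HSPA5 and CRELD2. All 9 genes past the filter with an ERSE and outside the lists were also named, a step chosen after the data had been seen. Alternatives were other filters, 0.1 or 1 added to both values, scaling to equal medians or 75th percentiles, summing rows with the same name, non-overlapping limits, a 2-fold threshold and subtraction of the length trend. The search for GACGTG was added after the data had been seen, as was the count of genes with an ERSE. Scripts were tested on simulated data. Calculations ran in Python 3.11.15 (numpy 2.4.6, pandas 2.3.3), and plots were drawn in matplotlib 3.10.9. The protein sequence features that had been planned were not analysed here.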

Additional observations from a re-analysis of the deposited data

How the results depend on the processing

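No paired analysis was possible because each genotype has 1 sample, and for the same reason no replicate could be left out. Of the 10 genes, 4 were more than 1.5-fold higher, and 2 with an FPKM of at least 1 required in both samples, since ERN1 and BHLHA15 were below it in WT cells. The count was 3 when an FPKM of 5 in either sample was required (without ERN1) and 3 at 2-fold (without XBP1). It was 5 with the length trend subtracted (with CREB3L4), and 4 under the other 7 alternatives. Among all genes, 8.39% were higher with an FPKM of 1 required in both samples and 8.42% with an FPKM of 5 in either. The share was 3.28% at 2-fold, 6.10% with the length trend subtracted and between 6.47% and 13.7% under the other 7. At 2-fold, 9 of the 21 XBP1 target genes remained against 17, and the counts for IRE1 partners in each direction and for lower IRE1 decay substrates went from 1 to 0. They were also 0 with the length trend subtracted. Of the 14 ATF6 target genes, 12 rather than 13 were higher with medians or 75th percentiles set equal, and 10 at 2-fold. Without the filter, 1 decay substrate (PDGFRB) and 1 gene of the CREB3 list (CREB3L1) were higher, both with an FPKM below 1. Adding 1 to both values took ERN1 on the log2 scale from 1.12 to 0.65 and BHLHA15 from 4.36 to 3.35. Over the pseudocounts, scalings, summed rows and length trend, XBP1 ranged from 0.90 to 1.06 and CREB3L2 from 0.76 to 1.06. MBTPS2 ranged from -0.026 to 0.14 and changed sign with the length trend subtracted. The 1481 higher and 1100 lower genes among all genes became 2496 and 1942 without the filter, 872 and 702 with an FPKM of at least 5, 479 and 304 at 2-fold and 759 and 615 with the length trend subtracted. A pseudocount of 1 left 944 higher genes.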

Other observations

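The ERSE found in the XBP1 promoter was used to describe genes outside the lists, a step chosen after the data had been seen. Among RefSeq promoters, those of 25 genes held CCAAT, any 9 bases and CCACG on either strand, of which 19 were in the deposited tables and 15 passed the filter on FPKM. Of these 15, 12 had a PERK-KO FPKM over 1.5 times the WT one and none was more than 1.5-fold lower, with a median log2 fold change of 0.74, beside 10.1% higher and 7.54% lower among all genes past the filter. XBP1 itself and 5 ATF6 target genes are among them, so the other 9 genes are the part that the lists do not already hold, and 6 of these 9 were higher. Which genes the lists hold was decided with earlier results of these data known, so the 9 are not an independent set. PDIA6, a protein disulfide isomerase, had a WT FPKM of 170 and a PERK-KO FPKM of 272, SERP1, a translocon-associated protein, had 39.3 and 65.5, and EIF2A, a translation initiation factor, had 22.6 and 34.0. ALG12, an ER mannosyltransferase, had 17.4 and 29.6, TRIM5, an antiviral factor, had 9.58 and 17.1, and FICD, the enzyme that AMPylates BiP, had 2.02 and 4.76. The remaining 3 did not pass 1.5-fold: ZNF17 had 2.08 and 2.39, FRG2C 1.05 and 0.815, and TMEM120A 13.9 and 9.89. The ratios of EIF2A (1.504) and CALR (1.526) were close to 1.5, and the count of 12 was not repeated under the alternatives. SERP1 and EIF2A lie next to each other, as do ALG12 and the ATF6 target gene CRELD2, so 1 element can fall in the promoters of both neighbours. With 1 sample per genotype this is a description of 2 libraries.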
